A study of Mus musculus with 8 samples.

Results

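Toll-like receptors are sensors of microbial and damaged-cell molecules, and Cd14 is a surface coreceptor that hands lipopolysaccharide and other ligands to some of them. The 10 genes described here were *Cd14* and the toll-like receptors *Tlr1*, *Tlr2*, *Tlr3*, *Tlr4*, *Tlr6*, *Tlr7*, *Tlr8*, *Tlr9* and *Tlr13*, found by symbol among the 32285 genes of the deposited single-cell count matrices. They were counted in CD45+ cells sorted from mouse mammary tumors on day 18, with 1 tumor per mouse. The tumors were parental E0771 (a mouse triple-negative breast cancer line, mice 1 and 3), E0771-Res1 (mice 4, 5 and 6) and E0771-Res2 (mice 7, 8 and 9). The resistant lines were each grown from a tumor that relapsed after paclitaxel plus anti–PD-1 antibody, so each stands for 1 relapse, and the parental values rest on 2 of the 3 mice that the study describes, the other of which was not analysed here. The labels give no host strain, age or treatment for these mice.

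As background, Tlr2 pairs with Tlr1 or Tlr6 on the cell surface to bind bacterial lipopeptides, and Tlr4 binds lipopolysaccharide with Ly96. Tlr3, Tlr7, Tlr8, Tlr9 and Tlr13 sit in endosomes, where they read double-stranded RNA, single-stranded RNA, CpG DNA and a bacterial ribosomal RNA sequence, and where Unc93b1 escorts them and proteases such as Lgmn and Ctsb trim them. Most signal through Myd88 and the Irak kinases to NF-κB, whereas Tlr3 uses Ticam1.

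Of 11430 deposited cells, 10605 (92.8%) passed the study's limits on genes per cell and mitochondrial share, and no cell barcode was shared between mice. Total counts ran from 5036667 to 18894504 unique molecular identifiers (UMIs, each marking 1 captured RNA molecule) per mouse. The median kept cell held 7631 to 8160 UMIs in the 5 parental and E0771-Res1 mice and 5589 to 7001 in the 3 E0771-Res2 mice. Cell classes were gates on raw UMIs, with no UMI of CD3 or NK cell genes: 2578 monocytes (*Ly6c2*, *Lyz2*, under 3 *C1qa* UMIs), 1884 macrophages (10 or more *C1qa* UMIs), 111 *Cd209a*+ dendritic cells and 166 *Ccr7*+ dendritic cells. A further 460 cells lay between monocytes and macrophages, 633 were T and NK cells, and 4718 kept cells (44.5%) met no gate. Monocytes, macrophages and *Ccr7*+ dendritic cells held their own markers. The 8 monocyte markers summed to 8914 CPM in monocytes against 1269 in macrophages. CPM are UMIs for every 1000000 UMIs of the class, counted without the mitochondrial (mt-), Rpl, Rps and Gm genes. The 8 macrophage markers summed to 22920 in macrophages against 3103 in monocytes, and the 8 mature dendritic markers to 16133 in *Ccr7*+ dendritic cells. Of the markers of the *Cd209a*+ gate, *Clec10a*, *Mgl2* and the scarce *Ccl17* were highest in it, whereas *Klrd1* was higher in T and NK cells (939 CPM against 558) and *Flt3*, *Itgax*, *H2-DMb2* and *Cd1d1* were higher in other gates. Its monocyte markers summed to 4929 CPM, of which *Plac8* gave 3704, and *Ccr2* (522) and *Ifitm6* (455) stood at the level of monocytes (499 and 437). All levels below are CPM of the class in 1 mouse, a scale that does not depend on gene length because only the 3′ end of each RNA was counted. Fitted log2 differences also include normalization factors (TMM) that these levels leave out, so they need not equal the ratio of the levels.

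The bases before the start sites of *Tlr2* and *Tlr13* are printed because these were the 2 receptors that differed between tumor lines in macrophages. They are RefSeq sequences of GRCm38.p6, read 5′ to 3′ on the strand of the gene, and they end where the first transcript of the gene begins in the GENCODE annotation. The last 159 bases before the RefSeq start of *Tlr2*, and the last 71 before that of *Tlr13*, were searched but are not shown. *Tlr2* has 1 start in the RefSeq table, and its bases shown are chr3:83841768-83841858 (minus strand). Those of *Tlr13* are chrX:106143025-106143203 (plus strand). Capitals mark matches to the searched motifs.
Tlr2: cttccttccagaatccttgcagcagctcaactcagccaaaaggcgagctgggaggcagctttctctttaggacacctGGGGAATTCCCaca
Tlr13: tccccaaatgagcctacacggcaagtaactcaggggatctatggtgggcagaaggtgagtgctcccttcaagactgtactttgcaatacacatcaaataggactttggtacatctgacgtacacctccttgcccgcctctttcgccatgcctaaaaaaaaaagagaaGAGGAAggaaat

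On both strands of the 250 bases before the RefSeq start, 3 motifs were searched: the PU.1 core GAGGAA, the AP-1 motif TGANTCA and the 10-letter NF-κB consensus. The *Tlr2* window held 2 overlapping NF-κB matches, 163 to 173 bases before the start, and the *Tlr13* window held a PU.1 core 78 to 83 bases before it. Of all 32851 windows in the table, 3.90% held an NF-κB match, 23.3% a PU.1 core and 6.75% an AP-1 match. Of the 9 receptors, 7 had a window in the table. Among the others with a window, *Tlr1*, *Tlr8* and *Tlr9* held a PU.1 core, *Tlr3* an NF-κB match and *Tlr9* an AP-1 match. These are matches of letters, and binding was not measured.

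Of the 4 classes, *Cd14* and *Tlr2* were highest in monocytes, whereas *Tlr1* and *Tlr4* were highest in macrophages. Over the 8 mice, *Cd14* averaged 894 ± 172 CPM (SD, n = 8) in monocytes and 464 ± 88.6 in macrophages. Its lowest monocyte value, 633, lay above its highest macrophage value, 604. *Cd14* was 2.14-fold higher in monocytes than in macrophages of the same mice (log2 difference 1.10 ± 0.10 SE, edgeR adjusted p = 8.1e-12), in 8 of 8 mice. *Tlr2* was the most abundant receptor in both classes, with 184 ± 54.1 CPM in monocytes and 109 ± 39.4 in macrophages (SD, n = 8). It was higher in monocytes of 8 of 8 mice although the ranges of the classes overlapped (log2 difference 0.92 ± 0.10 SE, edgeR adjusted p = 5.7e-10).

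*Tlr1*, the partner of Tlr2, went the other way. Its level was 33.5 ± 7.37 in monocytes and 61.0 ± 6.01 in macrophages (SD, n = 8), and the 2 ranges, 24.7 to 46.8 and 50.5 to 67.7, did not overlap. The log2 difference was -0.67 ± 0.09 (SE, edgeR adjusted p = 2.1e-07). *Tlr4*, the lipopolysaccharide receptor, was rarer, with 13.7 ± 3.53 in monocytes and 23.0 ± 5.69 in macrophages, and was lower in monocytes of 8 of 8 mice (log2 difference -0.54 ± 0.15 SE, edgeR adjusted p = 0.0029). For *Tlr6*, the other partner of Tlr2, the levels were 9.18 ± 1.60 and 11.3 ± 3.57, with a log2 difference of -0.03 and an interval of -0.46 to 0.39.

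Among the endosomal receptors, *Tlr13* and *Tlr7* were the most abundant, and their levels in the 2 classes were close. *Tlr13*, the sensor of bacterial ribosomal RNA, measured 67.3 ± 10.8 in monocytes and 82.1 ± 16.1 in macrophages (SD, n = 8; log2 difference -0.13, 95% interval -0.30 to 0.04). Its level was lower in monocytes of 7 of 8 mice. *Tlr7*, a sensor of single-stranded RNA, was at 63.1 ± 5.42 and 59.2 ± 9.14. Its log2 difference of 0.25 ± 0.11 SE, fitted with normalization factors that these levels leave out, passed narrowly (edgeR adjusted p = 0.0487). The call was lost in 7 of the 8 fits that left out a mouse, at adjusted p values of 0.0515 to 0.175. *Tlr3*, the sensor of double-stranded RNA, was lower in monocytes of 8 of 8 mice (12.3 ± 2.71 against 19.5 ± 11.4; log2 difference -0.42 ± 0.17 SE, edgeR adjusted p = 0.036). Its macrophage mean leaned on parental mouse 3 at 44.7, and without that mouse the adjusted p was 0.228. *Tlr8* (17.8 and 24.2) and *Tlr9* (7.30 and 9.20) were not called. In all, 6 of the 10 genes were called between monocytes and macrophages, 3 in each direction, where 47.0% of the 9109 genes tested were called, so the share is near the background.

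**Figure D1:**
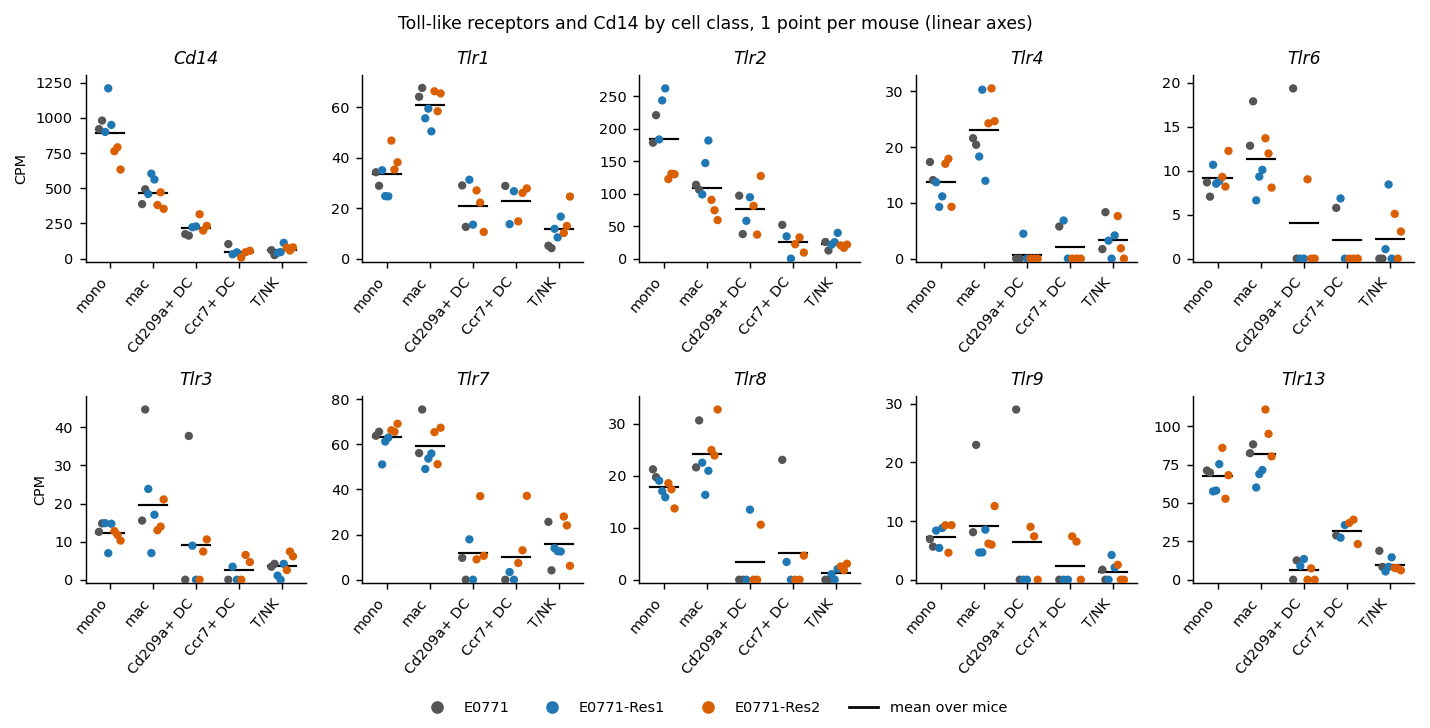
Levels of the 10 genes (CPM, linear axes) in monocytes, macrophages, *Cd209a*+ and *Ccr7*+ dendritic cells and T and NK cells, with 1 point per mouse with at least 10 cells, colored by tumor line, and a line at the mean. *Cd14* and *Tlr2* step down from monocytes through macrophages and *Cd209a*+ to *Ccr7*+ dendritic cells, *Tlr1* and *Tlr4* peak in macrophages, and *Tlr13* is near 0 in *Cd209a*+ dendritic cells but not in *Ccr7*+ dendritic cells.

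In *Cd209a*+ dendritic cells *Tlr13*, *Tlr7*, *Tlr1* and *Cd14* were lower than in macrophages. Within this class only *Cd14* and *Tlr2* passed the filter on low counts, and the other 8 genes were tested through the classes where they are higher, so their differences are given 1 by 1 as descriptions and no count or median over them is read. *Tlr13* was counted 6 times in 111 cells. It stood at 0 to 13.5 CPM in the 7 mice with at least 10 such cells, against 60.1 to 111 in macrophages (log2 difference -3.73 ± 0.38 SE). *Tlr4* had 1 UMI, so its macrophage level was 19.4 times the pooled level here with an exact 95% interval of 3.47 to 770, which covers counting error only. For *Tlr8*, with 2 UMIs, the ratio was 10.7 (2.93 to 88.5). *Tlr7* (-1.99 ± 0.38 SE) and *Tlr1* (-1.42 ± 0.27 SE) were also lower on the log2 scale, each in 7 of 7 mice. *Cd14*, which passed the filter within the class, stood at 0.499 times its macrophage level in 7 of 7 mice (edgeR adjusted p = 2.0e-06).

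*Tlr2* stood at 37.0 to 127 CPM in *Cd209a*+ dendritic cells, which overlapped macrophages (59.2 to 182). The log2 difference of -0.48 ± 0.24 SE did not pass (edgeR adjusted p = 0.144), but it passed after thinning every cell to 2500 UMIs (-1.12, adjusted p = 0.027) and without E0771-Res2 mouse 9 (-0.72, adjusted p = 0.024). Compared with monocytes, *Tlr2* was lower by 1.39 ± 0.22 on the log2 scale, to a fold of 0.381 (edgeR adjusted p = 4.2e-06). *Tlr2* made up 31.25% to 75% of the toll-like receptor UMIs of the *Cd209a*+ class in 7 mice, which covered the monocyte range of 31.5% to 56.0% in 8 mice. The *Cd209a*+ shares rested on 3 to 13 *Tlr2* UMIs per mouse, against 255 to 481 in monocytes, so their range includes wide counting error. *Tlr1* was found in 17.1% of *Cd209a*+ dendritic cells and in 17.1% of monocytes, but at unequal median depths of 9419 and 7275 UMIs. With every cell thinned to 2500 UMIs, the shares averaged 3.49% over 7 mice and 6.35% over 8. The level of *Tlr1* was lower than in monocytes in 7 of 7 mice, without a call (log2 difference -0.75 ± 0.29 SE, edgeR adjusted p = 0.061). *Tlr3*, *Tlr6* and *Tlr9* were called against neither class.

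*Ccr7*+ dendritic cells, the mature migratory state, had less *Cd14* than *Cd209a*+ cells and, as a description, more *Tlr13* and less *Tlr2*. *Tlr13* lay at 23.2 to 39.1 CPM in 6 mice, above every *Cd209a*+ value (log2 difference 2.53 ± 0.55 SE, edgeR adjusted p = 0.00039). The *Cd209a*+ side rested on 6 UMIs, and after thinning every cell to 2500 UMIs the adjusted p was 0.24. *Cd14* was at 7.39 to 104 against 164 to 316 (log2 difference -1.96 ± 0.26 SE, edgeR adjusted p = 8.4e-08). *Tlr2* was lower in 6 of 6 mice (log2 difference -1.19 ± 0.39 SE, edgeR adjusted p = 0.0186), a call lost without E0771-Res2 mouse 9 at an adjusted p of 0.10 and after thinning at 0.31. Within *Ccr7*+ cells only *Cd14* passed the filter on low counts, and within *Cd209a*+ cells only *Cd14* and *Tlr2*. The other genes were tested through monocytes and macrophages, so the *Tlr13* difference is a description. So is that of *Tlr2*, which of these 2 classes passed the filter only within *Cd209a*+ cells, where it is higher. Although 3 of 10 genes were called, where 29.9% of all genes were, this count is not read. *Tlr3*, *Tlr4*, *Tlr6*, *Tlr8* and *Tlr9* rested on at most 7 UMIs in either class.

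T and NK cells, which are not known for *Cd14*, served as the class to set shares of cells against. Their gate took 2 or more UMIs of CD3 or NK genes, with *C1qa* under 3 and *Lyz2* under 10. Cells with much of these myeloid RNAs were thus left out, which can lower the shares of myeloid genes in this class. Its median depth was also below the 9419 UMIs of *Cd209a*+ dendritic cells. Free RNA was not measured, and *Tlr7* was found in 9.00% of T and NK cells and 9.91% of *Cd209a*+ dendritic cells. *Cd14* was found in 21.2% of T and NK cells (95% interval 18.05 to 24.6, median 6563 UMIs) and in 15.7% of *Ccr7*+ dendritic cells (10.5 to 22.1, median 8105 UMIs), against 78.4% of monocytes, so the *Ccr7*+ share is not read as expression. *Tlr2* was likewise found in 10.7% of T and NK cells and 11.4% of *Ccr7*+ dendritic cells, but in 36.0% of *Cd209a*+ dendritic cells, 44.2% of macrophages and 51.2% of monocytes. *Tlr13* was found in 4.11% of T and NK cells (2.70 to 5.96), 5.41% of *Cd209a*+ dendritic cells (2.01 to 11.4) and 19.9% of *Ccr7*+ dendritic cells (14.1 to 26.8). With every cell thinned to 2500 UMIs, the median over mice for *Cd14* was 61.4% in monocytes, 43.1% in macrophages, 30.0% in *Cd209a*+ dendritic cells, 8.8% in T and NK cells and 7.8% in *Ccr7*+ dendritic cells, the same order.

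The rare gates are given without a test because each pools few cells over all mice. The 14 *Xcr1*+ cells, a gate for cross-presenting dendritic cells, held 22 *Tlr3* UMIs, or 136 CPM (exact 95% interval 85.2 to 206), against 19.2 in macrophages. The 23 *Siglech*+ cells, a gate for plasmacytoid cells, held 16 *Tlr7* UMIs, or 89.0 CPM (50.9 to 145), an interval that holds the 62.8 of monocytes. They also held 8 UMIs of *Tlr12*, an endosomal receptor outside the list, or 44.5 CPM (19.2 to 87.7). *Tlr12* otherwise stood at 8.5 in macrophages and 0.63 in monocytes. *Tlr5* and *Tlr11* reached at most 3.2 CPM in any of the 4 main classes or the cells between.

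Next, the tumor lines were compared within each class. *Tlr2* was lowest in E0771-Res2 tumors, in monocytes and in macrophages alike. The parental mice had *Tlr2* levels of 178 and 221 CPM in monocytes, the E0771-Res1 mice had 183, 243 and 262, and the E0771-Res2 mice had 122, 131 and 130. The 3 E0771-Res2 mice were the lowest of the 8 and did not overlap either of the other lines. Their mean of 128 ± 4.57 (SD, n = 3) was 0.560 times that of E0771-Res1 as fitted (229 ± 41.0 SD, n = 3; log2 difference -0.84 ± 0.13 SE, edgeR adjusted p = 0.0044). Leaving out any 1 mouse kept this call.

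Relative to parental tumors (199 ± 29.9 SD, n = 2), monocyte *Tlr2* in E0771-Res2 was lower by 0.61 ± 0.15 on the log2 scale and passed narrowly (edgeR adjusted p = 0.0473). That call was lost without parental mouse 1 (adjusted p = 0.17), parental mouse 3 (0.39), or E0771-Res2 mouse 7 (0.12), mouse 8 (0.062) or mouse 9 (0.15), with log2 differences of -0.77 to -0.48, and after thinning to 2500 UMIs (-0.52, adjusted p = 0.19). *Tlr2* in E0771-Res1 monocytes did not differ from parental beyond the spread (log2 difference 0.22, 95% interval -0.07 to 0.51).

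Macrophages showed the same order for *Tlr2*. Parental mice had levels of 113 and 106, E0771-Res1 mice of 98.7, 147 and 182, and E0771-Res2 mice of 90.3, 74.4 and 59.2. Again the E0771-Res2 mice were the lowest 3 of 8, with a log2 difference of -0.86 ± 0.20 (SE) from E0771-Res1 (edgeR adjusted p = 0.0380) and of -0.56 ± 0.24 from parental tumors (adjusted p = 0.273). The first of these lost its call without parental mouse 1 (adjusted p = 0.057) or 3 (0.059), E0771-Res1 mouse 5 (0.078) or 6 (0.092), and E0771-Res2 mouse 8 (0.091) or 9 (0.17), and after thinning to 2500 UMIs (log2 difference -0.71, adjusted p = 0.086). In the 460 cells between the 2 classes, which were not tested, *Tlr2* was 158 and 220, then 184 to 283, then 118 to 143. At equal depth per cell, the share of monocytes with a *Tlr2* UMI averaged 28.9% for the parental line, 33.7% for E0771-Res1 and 21.5% for E0771-Res2, and that of macrophages 22.4%, 24.7% and 14.5%.

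*Cd14* followed *Tlr2* with a smaller difference. Monocyte *Cd14* stood at 921 and 982 CPM for the parental mice, at 901, 1211 and 951 for E0771-Res1, and at 764, 792 and 633 for E0771-Res2. All 3 E0771-Res2 values lay below the other 5, but the log2 difference from E0771-Res1 of -0.48 ± 0.12 (SE) missed the threshold (edgeR adjusted p = 0.0527), and that from parental was -0.36 ± 0.13 (adjusted p = 0.199). DESeq2 called the first of these (adjusted p = 0.015). In macrophages *Cd14* was 388 and 493, then 460, 604 and 563, then 381, 472 and 354, and the lines overlapped (E0771-Res2 against E0771-Res1, log2 difference -0.41 ± 0.14 SE, adjusted p = 0.150).

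*Tlr13* went the opposite way in macrophages. The 2 parental mice had levels of 82.4 and 88.1, the E0771-Res1 mice 60.1, 68.8 and 71.4, and the E0771-Res2 mice 111, 94.97 and 80.3. All 3 E0771-Res1 mice were below the other 5. E0771-Res2 was higher than E0771-Res1 by 0.56 ± 0.14 on the log2 scale (edgeR adjusted p = 0.0433), but neither differed from parental with a call (E0771-Res1, log2 -0.40 ± 0.17, adjusted p = 0.335). The call was lost without parental mouse 1 (adjusted p = 0.057) or 3 (0.060), E0771-Res1 mouse 4 (0.20) or 5 (0.072), and E0771-Res2 mouse 7 (0.22) or 8 (0.095), and after thinning to 2500 UMIs (0.32). In the cells between, E0771-Res1 mice had *Tlr13* levels of 39.9 to 51.1 CPM, parental mice 67.1 and 68.5, and E0771-Res2 mice 76.6 to 86.6, with no overlap of any 2 lines. Those levels rested on only 12 to 46 *Tlr13* UMIs per mouse, with wide counting error, and were not tested. In monocytes the lines overlapped (57.5 to 75.3 in E0771-Res1, 52.7 to 85.9 in E0771-Res2; log2 difference 0.14, 95% interval -0.19 to 0.46).

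**Figure D2:**
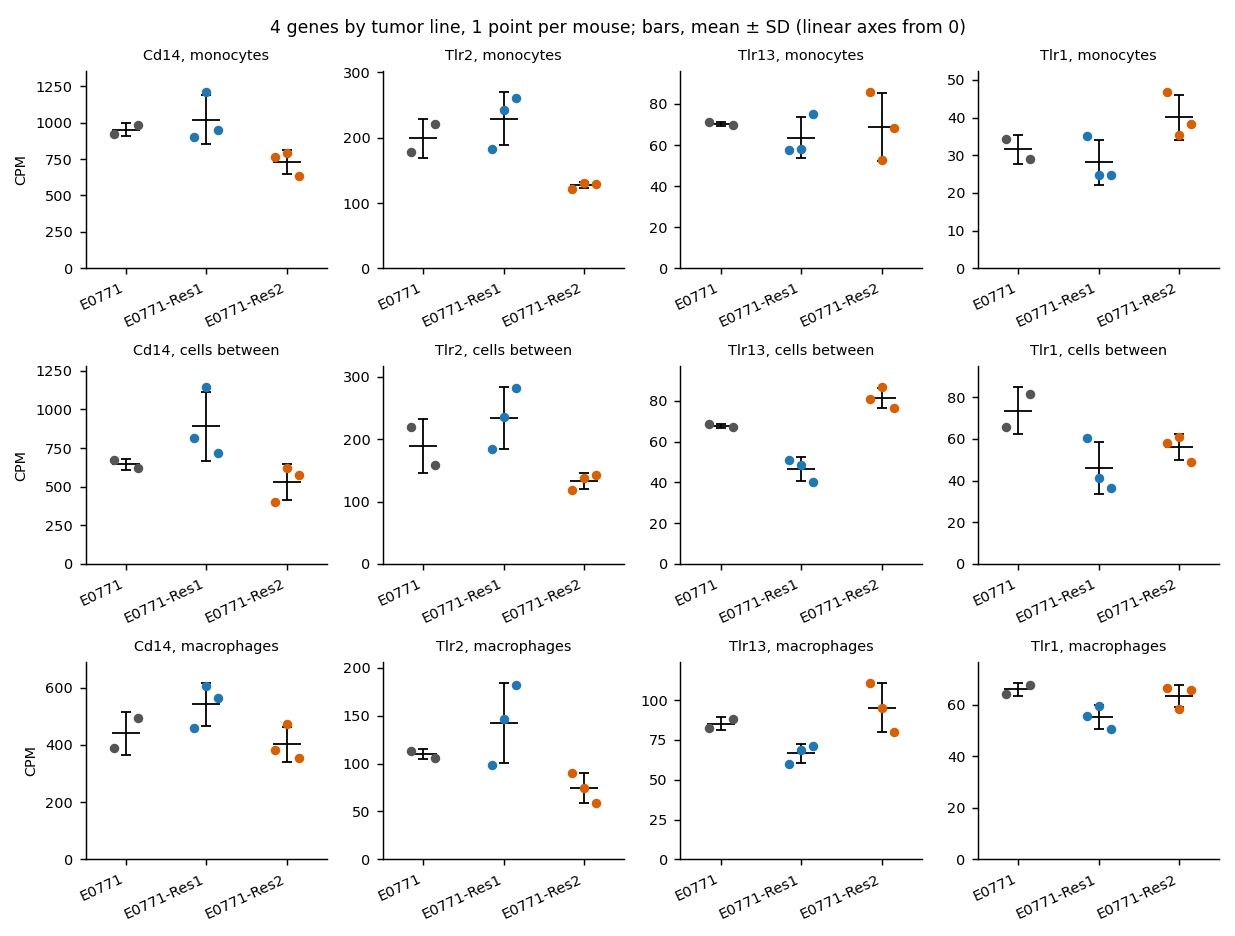
Levels of *Cd14*, *Tlr2*, *Tlr13* and *Tlr1* (CPM, linear axes from 0) by tumor line in monocytes, in cells between monocytes and macrophages and in macrophages, with 1 point per mouse and bars at mean ± SD. The *Tlr2* points of E0771-Res2 lie below those of the other lines in each of the 3 rows, and the *Tlr13* points of E0771-Res1 lie below the others in macrophages and in the cells between.

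*Tlr1* in monocytes was 35.3 to 46.8 CPM in E0771-Res2 and 24.7 to 35.0 in E0771-Res1 mice, with no overlap, and did not pass (log2 difference 0.49 ± 0.17 SE, edgeR adjusted p = 0.200). *Tlr3*, *Tlr4*, *Tlr6*, *Tlr7*, *Tlr8* and *Tlr9* were called between no pair of lines in monocytes or macrophages. Except for *Tlr7*, with 1000 UMIs in monocytes and 900 in macrophages, their counts were smaller than those of the other genes. The intervals of *Tlr9* were the widest of the 10 (E0771-Res1 against parental macrophages, log2 -1.33, interval -2.37 to -0.30, edgeR adjusted p = 0.301). That value rested on parental mouse 3, at 23.0 CPM against 8.1 in mouse 1.

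Counted over the 10 genes, 1 was called in monocytes between E0771-Res2 and E0771-Res1, where 1.75% of genes were, and 1 between E0771-Res2 and parental, where 1.65% were. In macrophages 2 were called between E0771-Res2 and E0771-Res1 (2.59% of genes). EdgeR called none of the 10 between E0771-Res2 and parental macrophages (1.86% of genes). DESeq2 called 0 of the 10, and its shares over all genes are not given. There edgeR gave 1 of the 10, and 1337 of all 8770 genes, an unadjusted p under 0.05. Between E0771-Res1 and parental tumors edgeR and DESeq2 called none of the 10 in monocytes (edgeR 0% of genes) or in macrophages (edgeR 0.490%). In monocytes 0 of the 10, and 664 of all 8726 genes, had an unadjusted edgeR p under 0.05. In macrophages 3 of the 10 did, and 1123 of all 8770 genes. With 2 parental mice, these comparisons were less precise than the one between the resistant lines. The 3 comparisons share mice, so they are not independent.

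**Figure D3:**
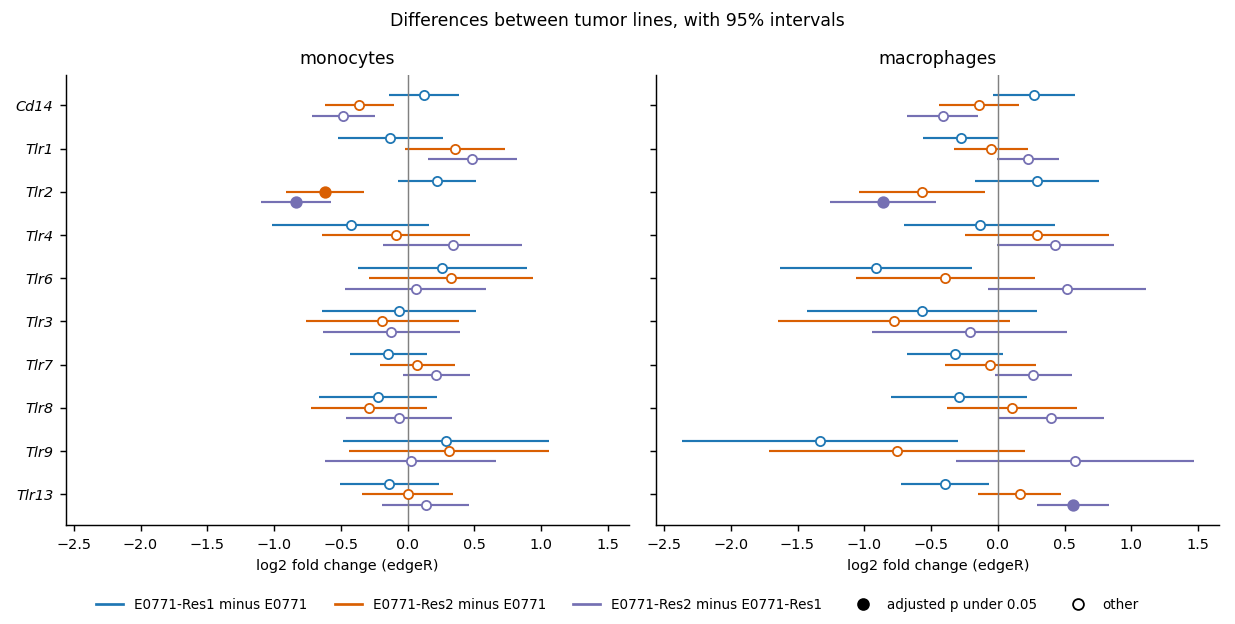
Log2 fold changes (edgeR) of the 10 genes between tumor lines in monocytes and macrophages, with 95% intervals and filled points for adjusted p under 0.05. The filled points are *Tlr2* in monocytes (E0771-Res2 against each other line) and *Tlr2* and *Tlr13* in macrophages (E0771-Res2 against E0771-Res1).

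Whether a line changed a gene differently in the 2 classes was tested on each mouse's difference between macrophages and monocytes. The effect on *Tlr2* between E0771-Res2 and E0771-Res1 differed between the classes by only -0.07 on the log2 scale (95% interval -0.40 to 0.26), and that on *Tlr13* by 0.41 (0.06 to 0.75, limma adjusted p = 0.944). Limma called none of the 10 genes for any pair of lines, where 0%, 0.0725% and 0% of genes were called for E0771-Res1 against parental, E0771-Res2 against parental and E0771-Res2 against E0771-Res1. For these pairs 2, 0 and 1 of the 10 had an unadjusted limma p under 0.05, where 789, 793 and 416 of 8274 genes did. So the *Tlr13* change was not shown to be particular to macrophages.

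Dendritic cells were too few for most of these comparisons. In the *Cd209a*+ class only *Cd14* and *Tlr2* passed the filter on low counts, and in the *Ccr7*+ class only *Cd14*, there with a single parental mouse of at least 10 cells, assumed to vary like the other lines. EdgeR and DESeq2 called none of them, where the 3 edgeR comparisons called 0%, 0.0918% and 0% of genes in *Cd209a*+ and 0.0296%, 0.118% and 0% in *Ccr7*+ cells. None had an unadjusted edgeR p under 0.05. Of all genes, 155, 170 and 135 of 2178 did in *Cd209a*+ and 147, 167 and 220 of 3378 in *Ccr7*+ cells. For *Tlr2* in *Cd209a*+ dendritic cells of E0771-Res2 against E0771-Res1, the log2 difference was 0.14 with an interval of -1.12 to 1.41, so a difference of the size seen in monocytes was not detectable at these counts.

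Marker sums of other cell types also differed between the lines. Within the monocyte gate the macrophage markers of parental mice summed to 2499 and 2852 CPM, those of E0771-Res1 mice to 2853 to 2966 and those of E0771-Res2 mice to 3118 to 3745, with none of the 8 markers at 0 over the class. Within the macrophage gate the monocyte marker sum was 2144 and 2160, then 884 to 1978, then 967 to 1429. Neutrophil markers in monocytes summed to 102 and 115, then 102 to 312, then 110 to 144, mostly *Csf3r*, with *Cxcr2*, *Retnlg* and *Mmp9* each under 1.1. In the *Cd209a*+ cells of E0771-Res2 mouse 8, tumor or stroma markers summed to 570 CPM, against 0 to 42.35 in the other mice tested. Their macrophage markers summed to 2769, against 566 to 1493, and the part of both in the dendritic comparisons was not tested. Macrophages were deeper in E0771-Res1 (median 11051 UMIs) than in E0771-Res2 (7990). The part of these in the differences of *Tlr2*, *Cd14*, *Tlr13* and the signaling genes between lines was not tested.

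Summed over receptors, E0771-Res2 monocytes held less surface receptor RNA, of which only *Tlr2* lay below both other lines, and a higher endosomal share. In monocytes the 4 surface receptors together gave 238 and 271 CPM for parental mice, 243 to 306 for E0771-Res1 mice and 190 to 195 for E0771-Res2 mice. The 5 endosomal receptors gave 175 and 176, then 149 to 178, then 152 to 193. Of the receptor UMIs in monocytes, 42.4% and 39.3% were endosomal for parental mice, 38.3%, 34.2% and 36.7% for E0771-Res1 mice, and 49.7%, 44.2% and 47.3% for E0771-Res2 mice. All 3 E0771-Res2 mice were above the other 5. *Tlr2* alone made up 43.0% and 49.4%, then 46.6% to 56.0%, then 31.5% to 37.9% of those UMIs, so the order of the shares follows that of *Tlr2*.

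In macrophages parental mice had endosomal shares of 46.4% and 55.3%, E0771-Res1 mice of 37.9% to 47.2% and E0771-Res2 mice of 52.0% to 57.6%, and parental overlapped both resistant lines. In the cells between it was 28.6% and 36.1%, then 23.9% to 36.5%, then 44.1% to 46.6%. Over the 8 mice the endosomal share averaged 41.5% ± 5.34 in monocytes and 48.7% ± 7.01 in macrophages (SD, n = 8). The sums are given without a test because the genes were chosen with earlier results of these data known.

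**Figure D4:**
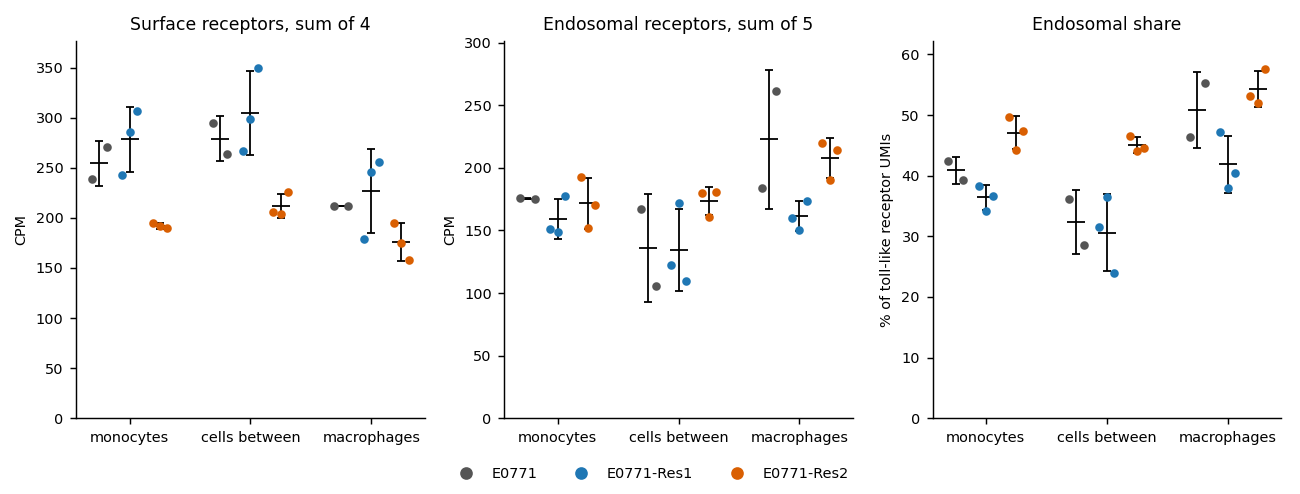
Summed levels of the 4 surface and the 5 endosomal receptors (CPM) and the endosomal share of their UMIs (%), by class and tumor line, with 1 point per mouse and bars at mean ± SD. The surface sums of the E0771-Res2 mice lie below the other lines in monocytes and in the cells between, and their endosomal shares lie above them.

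The signaling genes around the receptors were described from a list of 48. Between monocytes and macrophages, 17 of the 46 tested were higher in monocytes and 7 lower, with a median log2 difference of 0.14 against -0.03 over all genes. That is 24 of 46 called, where 47.0% of all genes were. Of the 9109 genes tested, 2123 were higher in monocytes and 2159 lower. The parts of the list hold few genes and were not tested as sets. The higher genes included 6 of 9 inhibitors and 4 of 6 transcription factors, and among the called genes with an average log2 CPM of at least 5 the largest differences were those of *Nfkbia* (log2 1.02 ± 0.12 SE), which holds NF-κB in the cytoplasm, the kinase gene *Irak2* (0.96 ± 0.10), *Nfkb1* (0.72 ± 0.09) and the ubiquitin ligase gene *Peli1* (0.62 ± 0.08). The lower genes included 5 of 11 coreceptors and chaperones, among them the endosomal proteases *Lgmn* (-1.11 ± 0.10) and *Ctsb* (-0.61 ± 0.11) and the escort *Unc93b1* (-0.40 ± 0.09), besides the interferon factor gene *Irf3* (-0.40 ± 0.11). Their edgeR adjusted p values ran from 1.4e-11 to 0.0035.

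In dendritic cells the list split as well. Against macrophages, *Cd209a*+ cells were higher for 7 and lower for 12 of 46 genes, where 26.7% of all genes were called and 14.4% were lower, among them *Nfkb1* (log2 1.65 ± 0.13 SE) and *Lgmn* (-2.92 ± 0.14). Against monocytes they were higher for 3 and lower for 18, where 21.1% of all genes were called and 13.4% were lower, with *Irak3*, an inhibitory kinase, at -3.08 ± 0.49 and *Cd36*, a lipid scavenger that also serves Tlr2, at -3.24 ± 0.68. *Ccr7*+ cells were higher than *Cd209a*+ cells for 13 and lower for 9, where 29.9% of all genes were called, among them *Irf8* (3.00 ± 0.15) and the cytokine signaling inhibitor *Socs1* (2.05 ± 0.44), and among the lower *Cd180* (-2.21 ± 0.45), the adaptor *Myd88* (-1.51 ± 0.28) and *Unc93b1* (-1.30 ± 0.20). EdgeR adjusted p values of these named genes were at most 0.00033. The 46 genes passed the filter over the 4 classes together. Within *Cd209a*+ cells only 20 of the 48 passed it, and within *Ccr7*+ cells 28. The others entered through other classes, so these counts are not read and the differences of the named genes are descriptions.

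Between tumor lines few of the list moved. E0771-Res2 monocytes had more *Ctsb* (log2 0.57 ± 0.13 SE, edgeR adjusted p = 0.033) and *Lgmn* (0.53 ± 0.13, adjusted p = 0.046) than E0771-Res1 monocytes, 2 of 44 genes tested, where 1.75% of all genes were called. Both are higher in macrophages, and the macrophage marker sum within the monocyte gate was also higher in E0771-Res2 (3118 to 3745 CPM) than in E0771-Res1 mice (2853 to 2966), whose part in these differences was not tested. In macrophages of the same lines 4 were higher, namely *Cd36* (0.96 ± 0.20), the Tlr4 partner *Ly96* (0.67 ± 0.13), *Ctsb* (0.59 ± 0.10) and the Tlr4 regulator *Cd180* (0.54 ± 0.09), and *Nfkbia* was lower (-0.78 ± 0.16), at edgeR adjusted p values of 0.0047 to 0.019, 5 of 44 genes where 2.59% of all genes were called. Against parental macrophages, E0771-Res2 macrophages had more *Cd36* (1.86 ± 0.28, adjusted p = 0.0038) and less *Peli1* (-0.81 ± 0.14, adjusted p = 0.0068) and *Myd88* (-0.68 ± 0.13, adjusted p = 0.017), 3 of 44 genes where 1.86% of all genes were called. EdgeR called none of the 44 between E0771-Res1 and parental tumors in either class. It called 0% of all genes there in monocytes and 0.490% in macrophages.

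Genes whose level tracked a receptor over the 29 sums of class and mouse were ranked by Pearson correlation among 3928 genes, as a description in which sums of 1 mouse share its depth and classes dominate. *Cd14* was most like *Sdcbp* (r = 0.95), *Ms4a6d* (0.94) and *Tgfb1* (0.94). Among the genes nearest *Tlr2* were *Rnpep* (0.93) and *Plod3* (0.91), and those nearest *Tlr4* were *Cndp2* (0.94), *Aif1* (0.91) and *Aprt* (0.88). The genes nearest *Tlr7* were *Ccl2* (0.91), *Vmp1* (0.88) and *Cln3* (0.87), and those nearest *Tlr13* were *Ctsz* (0.90), *Atp2b1* (0.89) and the lysosomal membrane gene *Lamp1* (0.89).

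In the genome (GRCm38, GENCODE M21), all 10 are protein-coding genes. *Tlr2* lies at chromosome 3, 83836272 to 83841767, on the minus strand, *Tlr4* at chromosome 4, 66827584 to 66930284, on the plus strand, and *Tlr13* at chromosome X, 106143204 to 106160493, on the plus strand. *Tlr1* (64924679 to 64933563) and *Tlr6* (64952031 to 64960097) lie side by side on chromosome 5 (minus strand), and *Tlr8* (167242696 to 167264329) and *Tlr7* (167304929 to 167330558) likewise on chromosome X. *Tlr3* is on chromosome 8 and *Tlr9* on chromosome 9.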

How the data were processed

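Single CD45+ cells of 8 tumors (2 parental E0771, 3 E0771-Res1, 3 E0771-Res2) were labeled with oligonucleotide tags, pooled and captured with a 3′ kit. The authors counted unique molecular identifiers with Cell Ranger 6.1.2 (named in the file headers) against mm10 and deposited 1 matrix of unnormalized counts per mouse. Kept were cells with 500 to 6000 genes whose mitochondrial share was under 10%. The 8636 mt-, Rpl, Rps and Gm genes and the 9 tags stayed out, as the study's methods state for the genes. Gates used raw UMIs: macrophages, *C1qa* at 10 or more; *Ccr7*+ dendritic cells, *Ccr7* at 2 or more with *Fscn1*; *Cd209a*+ dendritic cells, *Cd209a* at 2 or more with *H2-Ab1* at 10 or more; monocytes, *Ly6c2* at 2 or more, *Lyz2* at 10 or more and *C1qa* under 3; cells between, *C1qa* 3 to 9. Scrublet (scanpy 1.11.5) called 30 of 10605 cells (0.283%), which was taken as a failed call, so doublets were kept.

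Counts were summed per mouse and class. A dendritic sum of fewer than 10 cells was dropped, which left 29 sums. The sums were tested across all genes with edgeR 4.0.16 (TMM, filterByExpr, quasi-likelihood, Benjamini-Hochberg adjustment, call at 0.05): classes with mouse as a block, since 1 mouse gave all of its classes, and lines within a class over the 3 lines. Differences of line effects used limma 3.58.1 on log2 CPM with a prior count of 2. Standard errors are the log2 fold change over the square root of the F statistic, and 95% intervals of fold changes are 1.96 standard errors each way. With few mice these intervals are approximate and too narrow. That of *Tlr8* in macrophages of E0771-Res2 against E0771-Res1 excluded 0 (0.0009 to 0.80) at an unadjusted edgeR p of 0.069. Intervals of shares (Clopper-Pearson) and of pooled levels (Poisson) are exact and cover counting error only. R 4.3.3, DESeq2 1.42.0, Python 3.11.15 and scipy 1.17.1 were used. The fits were also run on simulated counts, with changes larger than the *Tlr2* and *Tlr13* differences between lines. That run does not measure how well differences of their size are found.

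The genes, lists, gates and tests were chosen with earlier results of these data known. Named were all 10 genes, and of the 48 pathway genes up to 4 called per direction with the largest change and an average log2 CPM of at least 5. Of the latter a few are left out of the text for length. Patterns name the 3 most correlated genes, of which 1 is not reported here. The alternatives were other normalization, DESeq2, other filters and gates, thinning, removal of likely doublets, other blocks and leaving out each mouse. Gates with up to 1 T and 1 NK UMI were added after the numbers of cells were seen.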

Additional observations from a re-analysis of the deposited data

How the results depend on the processing

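Each comparison was recomputed under the alternatives named in the processing, without each mouse in turn, and with gates that allowed 1 T and 1 NK cell UMI, which were added after the numbers of cells were seen. Over these, no called gene changed its direction. Of the values of called genes, 245 kept their call and 24 lost it under a changed setting, and 172 kept it and 28 lost it when a mouse was left out. These counts pool all comparisons, including dendritic differences given above as descriptions only. They do not measure how stable the line calls are, whose losses without a mouse are listed above. Of the values of genes not called, 20 became calls under a changed setting and 6 without a mouse.

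The number of the 10 genes called moved as follows. Between *Ccr7*+ and *Cd209a*+ dendritic cells it fell from 3 to 1 after thinning to 2500 UMIs. Between E0771-Res2 and parental monocytes it was 1, but 2 with no filter on low counts (*Cd14* added, log2 -0.38, adjusted p = 0.035), and 0 with *C1qa* gates per 10000 UMIs, without the highest doublet scores or after thinning, and it ran from 0 to 1 without 1 mouse. Between E0771-Res2 and E0771-Res1 monocytes it was 1, and became 2, with *Cd14* added, under DESeq2, with no filter, with the mt-, Rpl, Rps and Gm genes kept, with *C1qa* gates per 10000 UMIs, with the monocyte gate at *C1qa* under 10 and with up to 1 T and 1 NK UMI, and it ran from 1 to 2 without 1 mouse. Between E0771-Res2 and parental macrophages it rose from 0 to 1 with no filter (*Tlr2*). Between E0771-Res2 and E0771-Res1 macrophages it fell from 2 to 1 under DESeq2, with *C1qa* gates per 10000 UMIs, without the highest doublet scores and with up to 1 T and 1 NK UMI, where *Tlr13* was the gene lost, to 0 after thinning, and to 0 to 1 without 1 mouse. The causes were not tested.

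The numbers in the sample titles do not pair mice, since the labels give each tumor its own mouse number. With the title number as a replicate block, 2 genes were called between E0771-Res2 and E0771-Res1 monocytes in place of 1, and 0 in macrophages in place of 2 (*Tlr2* adjusted p = 0.053, *Tlr13* 0.059). Between classes of the same mice, leaving out the replicate block lost *Tlr7* and *Tlr3* between monocytes and macrophages and *Tlr2* between the dendritic classes. Low counts limit the rare receptors: in the 111 *Cd209a*+ and 166 *Ccr7*+ dendritic cells *Tlr3*, *Tlr4*, *Tlr6*, *Tlr8* and *Tlr9* rest on at most 7 UMIs a class.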
